A study of Homo sapiens with 16 samples.

Results

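Integrins are cell surface receptors built from one alpha and one beta chain, and they tie the cytoskeleton to proteins of the matrix outside the cell. Laminin-332 is the basement membrane laminin of stratified epithelia and LAMA3 and LAMB3 encode its alpha 3 and beta 3 chains. It is bound by the integrin made of ITGA6 and ITGB4, which anchors basal epithelial cells through hemidesmosomes, and by the integrin made of ITGA3 and ITGB1. ITGA2 pairs with ITGB1 in a receptor for collagen, and ITGAV pairs with ITGB6 in an epithelial receptor that binds the latent form of the cytokine TGF-beta. The 9 genes described here are ITGA2, ITGA3, ITGA6, ITGAV, ITGB1, ITGB4, ITGB6, LAMA3 and LAMB3. They were picked by symbol with earlier results of these data known, so counts of calls among them describe this list only. All 9 were found among the 58721 genes of the count table, and all 9 passed the filter on low counts in every comparison.

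Expression was measured by 3' mRNA sequencing, which reads the ends of transcripts, in 16 libraries of the human bladder cancer lines RT112 and SCaBER, which the study uses as a luminal and a basal/squamous model. Each line received, at 10 nM per the labels, 1 of 2 siRNAs against the transcription factor FOXA1 (siFOXA1.1, siFOXA1.2) or 1 of 2 control siRNAs (siControl.1, siControl.2), with 2 libraries for each siRNA. The labels call the replicate number an experiment batch and do not mention separate cultures, so p-values measure the spread between these libraries. RT112 was grown in RPMI and SCaBER in DMEM, both with serum, so line and medium cannot be told apart, and each subtype is stood for by 1 line.

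Library totals ran from 4528513 to 7604581 counts, and a floor of 3 counts was 0.394 to 0.662 CPM (gene counts rescaled to a common library total). FOXA1 had 266 and 195 counts under siControl.1 in RT112 and 137 and 204 under siControl.2. It had 9 and 22 under siFOXA1.1 and 63 and 117 under siFOXA1.2. In SCaBER it had 3 to 15 counts under the control siRNAs and 0 to 6 under the FOXA1 siRNAs, too few to check the knockdown at this depth. The summed level of 5 luminal markers was 380 to 1041 CPM in RT112 and 26.5 to 57.04 CPM in SCaBER, and that of 5 basal or squamous markers was 100 to 240 CPM and 1404 to 2769 CPM. The luminal marker KRT20 was near 0 in both lines and the squamous marker DSG3 was at 0 in RT112. Leukocyte and endothelial markers summed to at most 11.2 CPM. The 6 fibroblast markers summed to 84.6 to 146 CPM in RT112 and 10.0 to 45.1 CPM in SCaBER. Among them LUM was at 48.9 to 137 CPM and COL1A1 at 7.50 to 56.5 CPM in RT112. In SCaBER these were at 4.86 to 28.2 CPM and 1.54 to 20.4 CPM, while COL3A1 and DCN were at 0 in every library. In RT112, mitochondrial genes held 25.7% to 28.2% of the counts under siFOXA1.1 and 18.0% to 21.2% under the other siRNAs.

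Promoter sequences from RefSeq (GRCh38.p14) matched 7 of the 9 genes. The windows below hold the 250 bases before a transcription start, read 5' to 3' on the strand of the gene. These genes are shown because LAMA3 and LAMB3 differed most between the lines, and ITGB6, ITGAV and ITGB1 changed most under siFOXA1.1 in RT112. For LAMB3 the window that held a motif is printed, and for ITGB6, ITGAV and ITGB1 the window directly before the gene. Capitals mark TGANTCA, the motif of AP-1 factors, searched on both strands with TGTTTAC and TGTTTGC, which are forkhead motifs.
LAMA3 (chr18:23872770-23873019, plus strand, inside the span of the gene): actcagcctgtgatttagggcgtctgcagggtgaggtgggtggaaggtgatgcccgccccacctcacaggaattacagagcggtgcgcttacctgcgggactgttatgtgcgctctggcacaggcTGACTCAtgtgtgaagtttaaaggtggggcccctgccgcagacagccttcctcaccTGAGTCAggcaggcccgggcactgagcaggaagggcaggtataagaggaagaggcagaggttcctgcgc
LAMB3 (chr1:209651375-209651624, minus strand, inside the span of the gene): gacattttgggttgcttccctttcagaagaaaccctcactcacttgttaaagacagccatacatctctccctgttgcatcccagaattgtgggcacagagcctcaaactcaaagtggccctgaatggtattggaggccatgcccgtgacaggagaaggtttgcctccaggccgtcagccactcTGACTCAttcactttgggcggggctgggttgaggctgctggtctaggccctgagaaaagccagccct
ITGB6 (chr2:160200273-160200522, minus strand, before the gene): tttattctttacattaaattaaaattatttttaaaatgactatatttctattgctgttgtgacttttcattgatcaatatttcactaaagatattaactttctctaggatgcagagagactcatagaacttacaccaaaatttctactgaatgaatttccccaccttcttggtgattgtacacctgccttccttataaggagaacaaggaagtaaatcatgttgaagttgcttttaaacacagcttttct
ITGAV (chr2:186589806-186590055, plus strand, before the gene): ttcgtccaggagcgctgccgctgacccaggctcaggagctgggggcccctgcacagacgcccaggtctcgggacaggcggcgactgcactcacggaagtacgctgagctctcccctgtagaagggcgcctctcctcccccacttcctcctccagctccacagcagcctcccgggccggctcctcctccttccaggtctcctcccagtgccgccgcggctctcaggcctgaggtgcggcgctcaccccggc
ITGB1 (chr10:32958231-32958480, minus strand, before the gene): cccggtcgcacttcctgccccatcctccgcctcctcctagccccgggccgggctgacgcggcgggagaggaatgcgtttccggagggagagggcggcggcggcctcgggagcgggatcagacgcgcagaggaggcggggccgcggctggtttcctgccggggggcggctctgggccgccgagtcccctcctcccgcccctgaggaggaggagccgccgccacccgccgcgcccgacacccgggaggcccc
The LAMA3 window held TGANTCA 2 times, beginning 125 and 69 bases before the start, and the LAMB3 window held it 67 bases before the start. The table has 2 other LAMB3 windows, chr1:209652426-209652675 directly before the gene and chr1:209652330-209652579, and neither held any of these motifs. TGANTCA was present in 6.573% of 35116 RefSeq windows of the same length. That is a share per window and not per gene, and LAMB3 had more than 1 window searched. Of the 7 matched genes, 1 held a forkhead motif, ITGA2 with TGTTTGC 91 bases before its start (chr5:52989102-52989351, plus strand), against 3.232% of all windows for TGTTTGC and 2.979% for TGTTTAC. The printed ITGB6 window was 30.0% G and C with 0 CpG, whereas the windows of ITGAV and ITGB1 were 70.8% and 78.4% G and C with 18 and 32 CpG. A second window of ITGAV (chr2:186599955-186600204) was 40.8% G and C with 1 CpG, and a second window of ITGB1 (chr10:32935559-32935808) was 41.6% with 4 CpG, so the contrast with ITGB6 holds for the windows printed. The median over all windows was 58% and 11 CpG. A match or its absence is a description of these letters and says nothing of binding.

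In the control libraries, SCaBER had far more RNA of LAMA3 and LAMB3 than RT112, and more of the collagen receptor chain ITGA2 and of ITGAV. In such bulk libraries, fewer cells with a transcript and less of it per cell cannot be told apart. LAMA3 read 4.08, 3.47, 9.58 and 7.64 CPM in RT112, giving siControl.1 replicates 1 and 2 and then siControl.2 replicates 1 and 2, and 116, 148, 73.3 and 74.4 CPM in SCaBER. LAMB3 read 36.6, 40.3, 49.0 and 49.6 CPM in RT112 and 278, 427, 184 and 218 CPM in SCaBER. For both chains the lines did not overlap, which was not counted over all genes tested. RT112 was lower by a log2 fold change of -4.04 (SE 0.33, edgeR adjusted p = 1.85e-07) for LAMA3 and -2.64 (SE 0.23, edgeR adjusted p = 3.37e-07) for LAMB3.

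Among the integrin chains, ITGA2 was 48.4 ± 21.0 CPM (SD, n = 4) in RT112 and 193 ± 16.4 CPM in SCaBER, with a log2 fold change of -1.99 (SE 0.24, edgeR adjusted p = 8.7e-06). ITGAV was 30.4 ± 3.37 and 105 ± 20.6 CPM, with a log2 fold change of -1.78 (SE 0.18, edgeR adjusted p = 1.75e-06). ITGA3 was 57.7 ± 8.29 and 113 ± 19.2 CPM, with a log2 fold change of -0.95 (SE 0.18, edgeR adjusted p = 0.000423). In total 7 of the 9 genes passed the test, 6 of them lower in RT112, against 43.4% of all 12309 genes tested. ITGA6 was lower in RT112 by -0.53 (SE 0.17, edgeR adjusted p = 0.0188). That call was lost without RT112 siControl.1 replicate 1 (adjusted p = 0.0659) or replicate 2 (adjusted p = 0.0633). The fit with a replicate block in each line contrasted only the replicate 1 libraries of the lines, so it is no adjustment for batch. In it ITGA6 was not called (-0.45, edgeR adjusted p = 0.232). ITGB6 was the gene higher in RT112, by 0.78 (SE 0.30, edgeR adjusted p = 0.0457), with overlapping lines. Its call was lost in that contrast of replicate 1 libraries (0.86, adjusted p = 0.174). It was also lost without either SCaBER siControl.2 library, without either RT112 siControl.2 library and without RT112 siControl.1 replicate 2 (0.51 to 0.84). ITGB1 (-0.37, SE 0.18, edgeR adjusted p = 0.109) and ITGB4 (-0.05, SE 0.17, edgeR adjusted p = 0.848), the shared beta chain and the hemidesmosome beta chain, did not pass. With limma on TPM, ITGB1 was called (-0.77, limma adjusted p = 0.0133). On that scale the median of all genes was -0.32 and 28.6% of the genes called were higher in RT112. With edgeR these were 0.02 and 48.9%.

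Levels of different genes were set side by side on TPM, the authors' values per gene length, although reads from transcript ends do not scale with length. The order in RT112 was ITGA6 (71.3 ± 21.5 TPM, SD, n = 4), ITGB1 (60.7 ± 16.7), ITGB4 (44.8 ± 5.75), ITGB6 (29.3 ± 8.33), LAMB3 (18.4 ± 3.30), ITGA2 (12.1 ± 5.57), ITGA3 (11.5 ± 1.82), ITGAV (7.25 ± 0.87) and LAMA3 (0.838 ± 0.42). Neighbours in this order overlapped in range except ITGB6 with LAMB3, ITGA3 with ITGAV and ITGAV with LAMA3. In SCaBER the order was LAMB3 (152 ± 63.02 TPM), ITGA6 (134 ± 17.7), ITGB1 (103 ± 24.8), ITGA2 (62.5 ± 6.67), ITGB4 (60.6 ± 14.0), ITGAV (32.9 ± 6.67), ITGA3 (29.3 ± 4.501), ITGB6 (22.4 ± 9.92) and LAMA3 (18.0 ± 6.66). Here neighbours overlapped except ITGB1 with ITGA2 and ITGB4 with ITGAV. On CPM, ITGA3 moved up to rank 5 and LAMB3 down to rank 7 in RT112, and in SCaBER ITGA6 came before LAMB3, ITGA3 before ITGAV and LAMA3 before ITGB6.

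**Figure D1:**
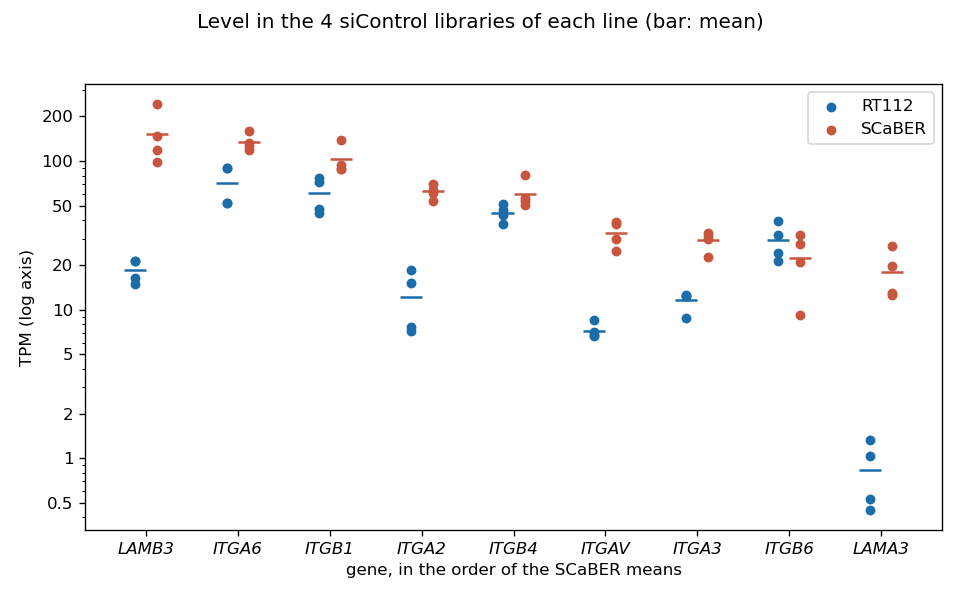
Points are the authors' TPM in each of the 4 siControl libraries of RT112 (blue) and SCaBER (red), on a log axis, bars are means, and genes are in the order of the SCaBER means. On TPM, LAMA3 has the lowest mean in both lines, with a range that overlaps ITGB6 in SCaBER. It lies at 0.45 to 1.33 TPM in RT112 against 12.6 to 26.7 TPM in SCaBER. ITGB4 and ITGB6 overlap between the lines, and on CPM so does ITGB1. On CPM, not divided by length, the SCaBER controls are at 73.3 to 148 for LAMA3 and 17.0 to 56.1 for ITGB6, without overlap.

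Whether knockdown of FOXA1 changed these genes in the luminal line was asked first with siFOXA1.1, the siRNA with the lower FOXA1 counts. Both chains of the receptor for latent TGF-beta rose, as did ITGB1 and ITGA3, while ITGB4 fell. ITGB6 read 52.6, 59.3, 73.9 and 93.3 CPM in the control libraries (in the order given above) and 169 and 147 CPM under siFOXA1.1. ITGAV read 28.7, 30.5, 27.3 and 35.0 CPM in the controls and 63.6 and 82.4 CPM under siFOXA1.1. For both, each siFOXA1.1 library was above every control library. Here and below, how many of all genes tested separated in this way was not counted. The log2 fold change was 1.34 (SE 0.15, edgeR adjusted p = 2.5e-06) for ITGB6 and 1.40 (SE 0.21, edgeR adjusted p = 4.95e-05) for ITGAV. Within batches 1 and 2 it was 1.53 and 1.12 for ITGB6 and 1.27 and 1.47 for ITGAV.

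ITGB1, the beta chain that most alpha chains share, read 141, 152, 228 and 219 CPM in the RT112 controls and 375 and 331 CPM under siFOXA1.1, without overlap, and its log2 fold change came to 1.097 (SE 0.11, edgeR adjusted p = 7.57e-07). ITGA3 read 64.4, 45.6, 59.7 and 60.9 CPM in the controls and 87.3 and 90.0 CPM under siFOXA1.1, a log2 fold change of 0.76 (SE 0.17, edgeR adjusted p = 0.00257). ITGB4 read 134, 155, 171 and 158 CPM in the controls and 90.2 and 75.7 CPM under siFOXA1.1, each below every control. Its decrease gave -0.76 on the log2 scale (SE 0.14, edgeR adjusted p = 0.000448). Its partner ITGA6 had 186 and 163 CPM under siFOXA1.1 against 180, 181, 288 and 294 CPM, and did not pass the test (-0.26, SE 0.11, adjusted p = 0.0831). LAMB3 (0.01, SE 0.29, adjusted p = 0.986) and LAMA3 (0.12, SE 0.55, adjusted p = 0.899) did not pass either, and LAMA3 had 23 to 90 counts in the RT112 libraries.

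ITGA2 passed the test under siFOXA1.1 in RT112, at 0.53 (SE 0.19, edgeR adjusted p = 0.0373), but its 64.7 and 54.5 CPM lay among the controls at 31.8, 30.0, 58.9 and 73.0 CPM. Its call was lost without RT112 siControl.1 replicate 1 (0.55), siControl.1 replicate 2 (0.51), siControl.2 replicate 1 (0.46), siFOXA1.1 replicate 1 (0.43) or siFOXA1.1 replicate 2 (0.62). Counting ITGA2, 6 of the 9 genes passed, 5 higher and 1 lower, against 32.6% of the 11986 genes tested in this comparison. The median log2 fold change was 0.53 over the 9 genes and -0.01 over all genes. With library totals in place of TMM, the median of all genes was -0.14 and 36.9% of the genes called were higher against 47.9% with TMM. On that scale ITGB6 was at 1.21, ITGAV at 1.27, ITGB1 at 0.96, ITGA3 at 0.62 and ITGB4 at -0.89, all still called, ITGA6 was called lower (-0.40, adjusted p = 0.0129) and ITGA2 was not called (0.40). With limma on the authors' TPM, 21.3% of called genes were higher and ITGA3 was not called (0.41, adjusted p = 0.144). With mitochondrial genes left out, 6 genes were called and ITGB6, ITGAV, ITGB1, ITGA3 and ITGB4 were at 1.34, 1.40, 1.09, 0.75 and -0.76. The summed luminal markers, FOXA1 among them, were at 380 to 439 CPM under siFOXA1.1, 559 to 655 CPM under siFOXA1.2 and 767 to 1041 CPM under the control siRNAs of RT112, and their part in these results was not tested.

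**Figure D2:**
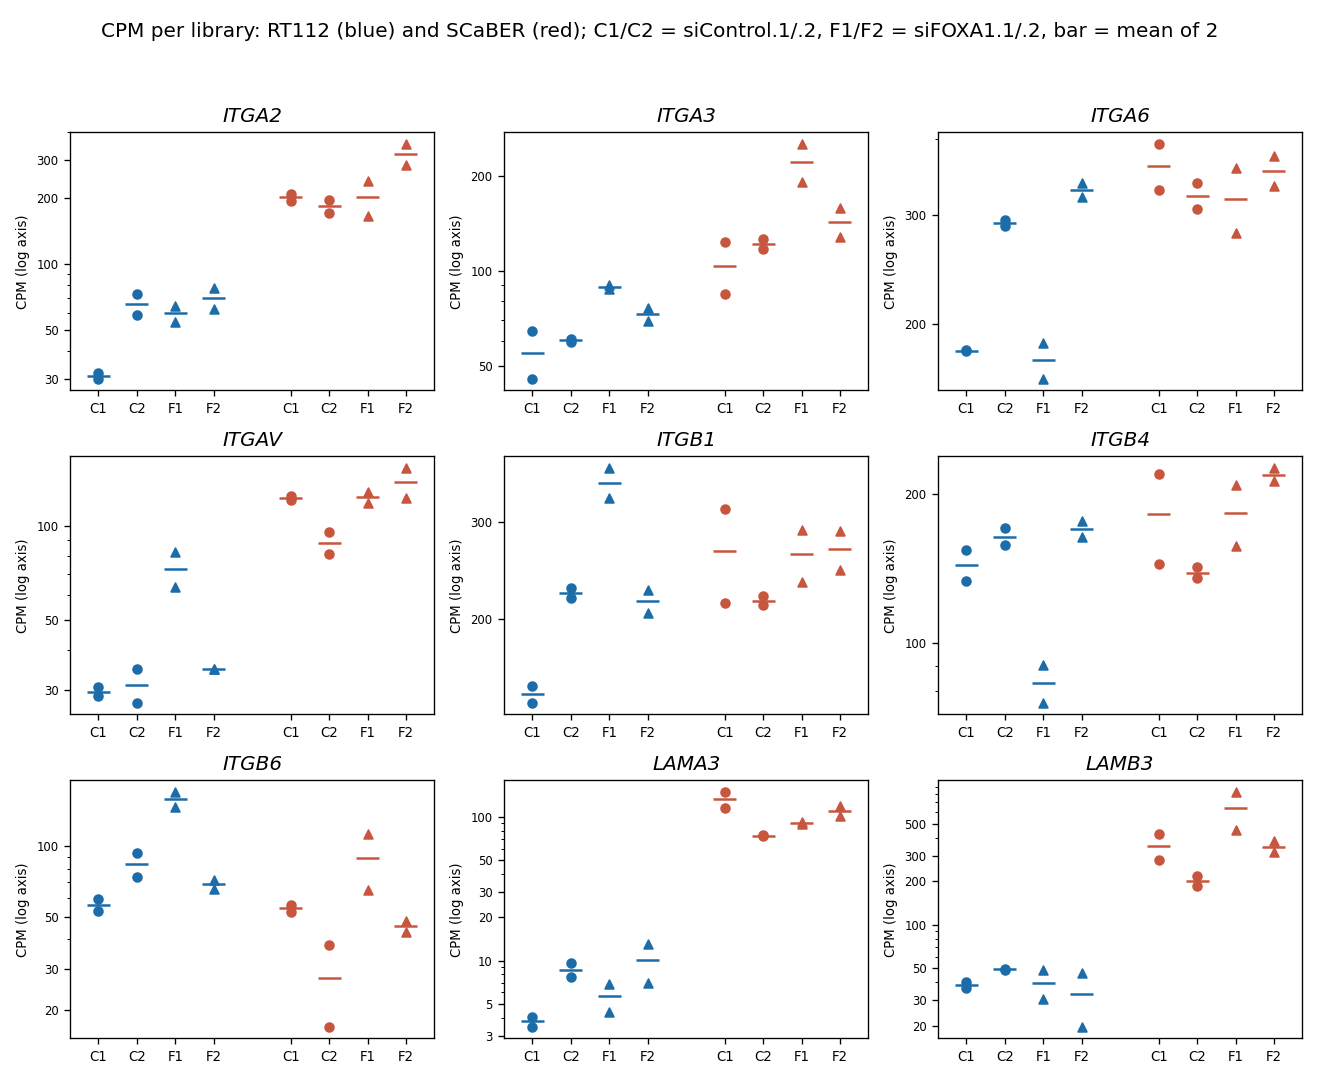
Each panel plots one gene's CPM in every library on a log axis, with RT112 in blue and SCaBER in red, circles for control siRNAs (C1, C2), triangles for FOXA1 siRNAs (F1, F2), and bars for the mean of 2 libraries. ITGAV and ITGB6 in RT112 stand at 63.6 to 82.4 CPM and 147 to 169 CPM under siFOXA1.1, above all 6 other RT112 libraries, and ITGB4 at 75.7 to 90.2 CPM lies below them.

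The control siRNAs differed from each other in RT112. Under siControl.1 the level was lower than under siControl.2 for ITGA2 (-1.03, SE 0.22, edgeR adjusted p = 0.0208), ITGA6 (-0.62, SE 0.13, adjusted p = 0.0138) and ITGB1 (-0.54, SE 0.13, adjusted p = 0.0372). These 3 of 9 genes compare with 2.36% of all genes tested. None of the 3 calls held when any of the 4 control libraries was left out, with log2 fold changes from -1.16 to -0.88 for ITGA2, -0.64 to -0.61 for ITGA6 and -0.61 to -0.48 for ITGB1, and that of ITGB1 was also lost without either siFOXA1.2 library. Each siFOXA1 siRNA was therefore also set against each control siRNA alone. Under siFOXA1.1, ITGB6, ITGAV, ITGB1, ITGA3 and ITGB4 kept their call and direction against either control, and 27.9% of all genes tested were called against each. ITGB6 was 1.60 above siControl.1 and 1.08 above siControl.2 on the log2 scale, and ITGB1 was 1.37 and 0.82 above. ITGA2 was 1.05 above siControl.1 and 0.02 above siControl.2. ITGA6 was 0.05 above siControl.1, and against siControl.2 it was called lower (-0.58, adjusted p = 0.00252).

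With siFOXA1.2, whose libraries kept more FOXA1 counts, ITGA6 was the gene of the 9 that passed the test in RT112, against 2.04% of all genes tested. It read 338 and 321 CPM, above all 4 controls, with a log2 fold change of 0.54 (SE 0.11, edgeR adjusted p = 0.0115). That call was lost without siFOXA1.2 replicate 1 (0.50, adjusted p = 0.203) or replicate 2 (0.57, adjusted p = 0.115), and against siControl.2 alone (0.23, adjusted p = 0.59). Against siControl.1 alone, where 2.65% of all genes tested were called, 3 of the 9 were, ITGA6 (0.85), ITGA2 (1.17) and ITGB1 (0.55). Against both controls ITGA2 was at 0.65 (SE 0.19, edgeR adjusted p = 0.0916), with 77.7 and 62.7 CPM. ITGB6 read 65.4 and 71.8 CPM, ITGAV 34.8 and 35.0 CPM and ITGB4 164 and 177 CPM, all within or next to the range of the controls, with log2 fold changes of 0.03, 0.22 and 0.16. ITGB1 (0.27), ITGA3 (0.36), LAMA3 (0.83, SE 0.53) and LAMB3 (-0.37, SE 0.30) did not pass either.

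**Figure D3:**
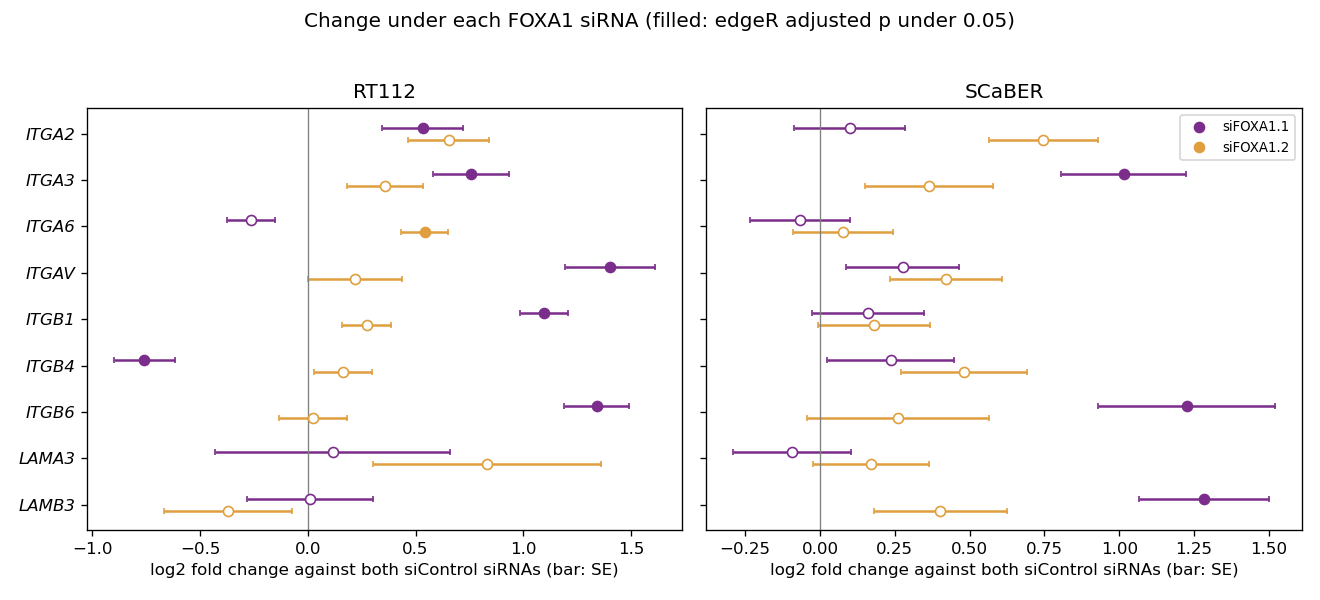
Points are log2 fold changes against both siControl siRNAs with bars for the SE, for siFOXA1.1 (purple) and siFOXA1.2 (orange) in RT112 (left) and SCaBER (right), and filled points have an edgeR adjusted p under 0.05. The horizontal scales of the panels differ. In RT112, ITGB6 is at 1.34 under siFOXA1.1 and 0.03 under siFOXA1.2, and in SCaBER at 1.23 and 0.26.

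The contrasts of siFOXA1.1 and of siFOXA1.2 share their control libraries, so the siRNAs were compared directly. In RT112, 5 of the 9 genes differed, against 28.1% of all genes tested. ITGB6 (1.32, SE 0.18, edgeR adjusted p = 3.7e-05), ITGAV (1.18, SE 0.25, adjusted p = 0.00183) and ITGB1 (0.82, SE 0.13, adjusted p = 0.000158) were higher under siFOXA1.1. Both chains of the hemidesmosome receptor were lower under siFOXA1.1, ITGA6 by -0.81 (SE 0.13, edgeR adjusted p = 0.000149) and ITGB4 by -0.92 (SE 0.16, edgeR adjusted p = 0.000298). For each of these 5 genes the call held with each RT112 library left out. Their libraries did not overlap between the siRNAs, but neither did those of ITGA3 and LAMA3, which were not called. The share of all genes tested without such overlap was not counted. ITGA3 was 0.40 higher under siFOXA1.1 without passing (adjusted p = 0.164). How far the unequal FOXA1 levels, or a different effect of each siRNA, take part in these differences was not tested.

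In SCaBER, the laminin chain LAMB3 and the integrin chains ITGB6 and ITGA3 rose under siFOXA1.1. LAMB3 read 278, 427, 184 and 218 CPM in the controls and 451 and 825 CPM under siFOXA1.1, with a log2 fold change of 1.28 (SE 0.22, edgeR adjusted p = 0.00196). ITGB6 read 52.4, 56.1, 17.0 and 37.98 CPM in the controls and 65.0 and 112 CPM under siFOXA1.1, with a log2 fold change of 1.23 (SE 0.30, edgeR adjusted p = 0.0175). ITGA3 read 123, 84.3, 117 and 126 CPM in the controls and 251 and 191 CPM under siFOXA1.1, with a log2 fold change of 1.01 (SE 0.21, edgeR adjusted p = 0.00727). In all 3 each siFOXA1.1 library was above every control, by a small margin for LAMB3 and ITGB6 over siControl.1. How many of all genes tested separated in this way was not counted. The 3 calls among 9 genes compare with 9.26% of the 11902 genes tested.

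Replicate 2 of SCaBER siFOXA1.1 had the highest LAMB3 and ITGB6 of the line. Without it ITGB6 was at 0.83 and not called (adjusted p = 0.161), and without siControl.2 replicate 1, the library with the lowest ITGB6, it was at 0.99 and not called (adjusted p = 0.0786). Within batches 1 and 2 the log2 difference was 1.15 and 1.32 for ITGB6, 1.04 and 1.48 for LAMB3 and 1.11 and 0.93 for ITGA3. Against siControl.1 alone, where 5.94% of all genes tested were called, 1 gene, ITGA3 (1.14), was called, with LAMB3 at 0.89 (adjusted p = 0.0616) and ITGB6 at 0.74 (adjusted p = 0.275). Against siControl.2 alone, where 6.62% of all genes were called, all 3 were called, LAMB3 at 1.68, ITGB6 at 1.71 and ITGA3 at 0.89. The other 6 genes were between -0.09 (LAMA3) and 0.28 (ITGAV) under siFOXA1.1 in SCaBER.

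**Figure D4:**
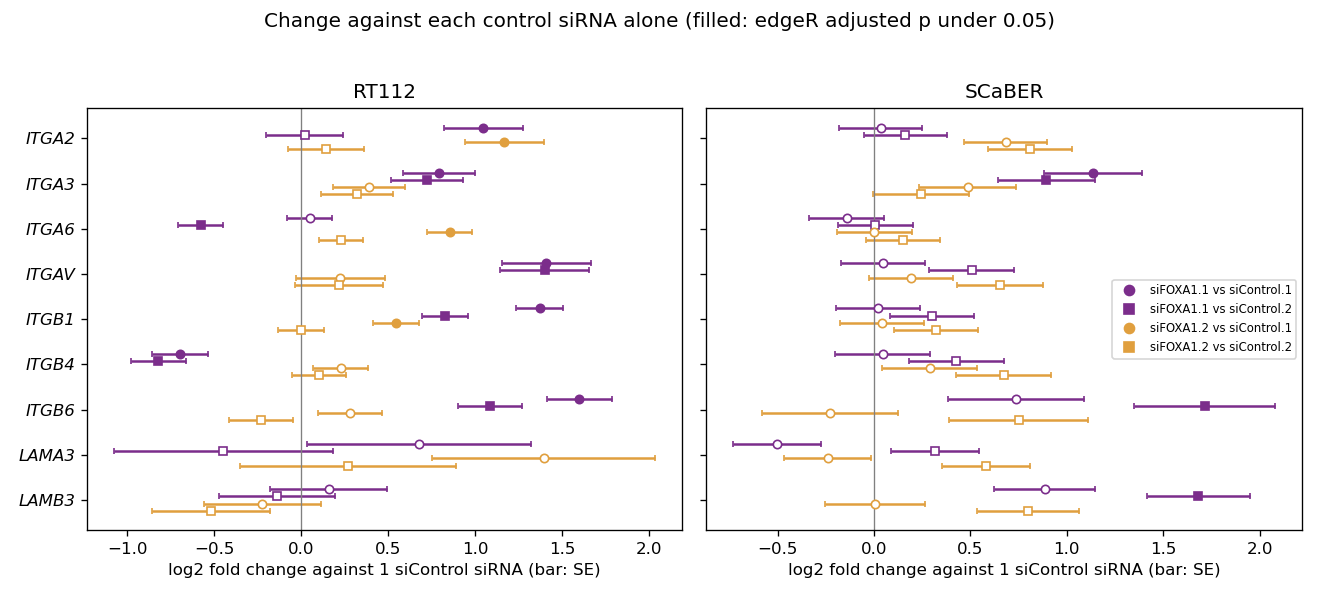
Points are log2 fold changes of each siFOXA1 siRNA against 1 control siRNA at a time, circles against siControl.1 and squares against siControl.2, with bars for the SE and filled points for an edgeR adjusted p under 0.05. The horizontal scales of the panels differ. In RT112 the circle and square of ITGA2 under siFOXA1.1 lie at 1.05 and 0.02, and those of ITGAV nearly coincide; in SCaBER those of LAMB3 lie at 0.89 and 1.68.

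With siFOXA1.2 in SCaBER, edgeR called 0 of the 9 genes, against 0.042% of all genes tested. An unadjusted p under 0.05 was found for 3 of the 9 and for 634 of the 11902 genes tested. DESeq2 called 1, ITGA2, against 38 of 4882 genes, and limma called 0. ITGA2 read 285 and 354 CPM, above the controls at 195, 210, 171 and 197 CPM, with a log2 fold change of 0.75 (SE 0.18, edgeR adjusted p = 0.435, DESeq2 adjusted p = 0.0255). ITGB4 (0.48, SE 0.21) and ITGAV (0.42, SE 0.19) were the others at that unadjusted level, and the remaining 6 genes were between 0.08 (ITGA6) and 0.40 (LAMB3). The direct comparison of siFOXA1.1 with siFOXA1.2 in SCaBER gave 0 of 9 calls in edgeR, against 4.85% of all genes tested. Of the 9, 4 were at an unadjusted p under 0.05, against 2170 of the 11902 genes tested. DESeq2 called 1 of the 9, against 885 of 11479 genes, and limma called 0. With the batch as a replicate block, where 807 of the 11902 genes tested were called, 2 of the 9 were, LAMB3 higher under siFOXA1.1 (0.84, adjusted p = 0.0128) and ITGA2 lower (-0.65, adjusted p = 0.0472). The control siRNAs compared in SCaBER gave 0 of 9 calls in edgeR, DESeq2 and limma, against 0.0672% of all genes in edgeR. At an unadjusted p under 0.05, 3 of the 9 differed there, against 790 of the 11902 genes tested. They were LAMA3 (0.82), LAMB3 (0.79) and ITGB6 (0.98), all higher under siControl.1.

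Pooling both siFOXA1 siRNAs, 4 libraries against 4, gave 0 of 9 calls in either line in edgeR, DESeq2 and limma. The share of all genes called by edgeR was 0.108% in RT112 and 0.0084% in SCaBER. An unadjusted p under 0.05 was found for 4 of the 9 in RT112, against 1454 of the 11986 genes tested. In SCaBER it was found for 3 of the 9, against 1059 of the 11902 genes tested. ITGA3, not called in either line, was the gene of the 9 whose groups did not overlap in RT112 or in SCaBER. The share of all genes tested without such overlap was not counted. In RT112 its 4 siFOXA1 libraries were at 69.2 to 90.0 CPM and its controls at 45.6 to 64.4 CPM, with a log2 fold change of 0.57 (SE 0.19, edgeR adjusted p = 0.31). In SCaBER they were at 128 to 251 CPM and 84.3 to 126 CPM, with a log2 fold change of 0.72 (SE 0.23, edgeR adjusted p = 0.461).

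Whether the change under each siRNA differed between the lines was tested as an interaction over all 16 libraries. Under siFOXA1.1, 3 of the 9 genes differed, against 3.14% of 13701 genes tested. The change in RT112 minus that in SCaBER was 1.11 for ITGAV (SE 0.27, edgeR adjusted p = 0.0286), 0.92 for ITGB1 (SE 0.22, edgeR adjusted p = 0.0303) and -1.01 for ITGB4 (SE 0.26, edgeR adjusted p = 0.0432). With one library left out at a time the call held in 11 of 16 fits for ITGAV, 6 of 16 for ITGB1 and 2 of 16 for ITGB4, while the values stayed at 0.88 to 1.30, 0.76 to 1.05 and -1.23 to -0.76. LAMB3, called under siFOXA1.1 in SCaBER and not in RT112, differed by -1.29 (SE 0.40, edgeR adjusted p = 0.084, DESeq2 adjusted p = 0.0375). ITGB6 and ITGA3, called in both lines under siFOXA1.1, differed by 0.09 (SE 0.36) and -0.27 (SE 0.28) between them. Under siFOXA1.2 the interaction gave 0 of 9 calls in edgeR, DESeq2 and limma, against 0.0438% of all genes in edgeR. An unadjusted p under 0.05 was found for 1 of the 9, ITGA6 (0.47, SE 0.20), against 829 of the 13701 genes tested.

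Of the proteins that work with these chains, COL17A1, the transmembrane collagen of hemidesmosomes, was 937 ± 116 CPM (SD, n = 4) in SCaBER and 7.36 ± 1.70 CPM in RT112 controls (log2 fold change -6.97, SE 0.20, edgeR adjusted p = 5.72e-12) and passed no siRNA test (-0.73 to 0.41). The cytoskeletal linkers PLEC and DST were lower in RT112 than in SCaBER controls by -0.58 and -1.15 (adjusted p = 0.00879 and 1.06e-05). Under siFOXA1.1 in RT112, PLEC fell by 0.43 (adjusted p = 0.0462) and the tetraspanin CD151, a partner of ITGA3 and ITGA6, fell by 0.53 (adjusted p = 0.0036), while DST was at 0.40 (adjusted p = 0.0538).

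Of 78 other genes of integrins, laminins, hemidesmosomes, ligands and adaptors, 49 were tested in RT112 and 25 passed under siFOXA1.1, 17 higher and 8 lower, against 32.6% of all genes tested, with a median log2 fold change of 0.03 over the 49. The largest falls were in the integrin activator FERMT1 (kindlin-1, -1.89, SE 0.14, edgeR adjusted p = 2.18e-08), the adaptor TNS4 (-1.63), talin TLN1 (-0.58) and ITGB5 (-0.56). The largest rises were in the matricellular ligand CYR61, also named CCN1 (3.32, SE 0.29, adjusted p = 1.43e-07), the laminin chain LAMB2 (2.03), ITGB8 (1.92), which like ITGB6 pairs with ITGAV, and thrombospondin THBS1 (1.83). By list, 3 of 6 other integrin chains passed, 3 of 5 other laminin chains, 5 of 7 hemidesmosome and tetraspanin genes, 4 of 11 ligand genes and 10 of 20 adaptors, each to be read against the same 32.6%. Under siFOXA1.2 in RT112, 3 of the 49 passed, against 2.04% of all genes tested, all higher: fibronectin FN1 (0.84), FERMT1 (0.52) and the adaptor LIMS1 (0.50). FERMT1 read 69.4 and 52.2 CPM under siFOXA1.1, 325 and 371 CPM under siFOXA1.2 and 233 to 260 CPM in the controls.

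In SCaBER, 5 of 49 such genes passed under siFOXA1.1, 4 higher and 1 lower, a share near the 9.26% of all genes called. They included FN1 (1.41, SE 0.26, edgeR adjusted p = 0.00351), its receptor chain ITGA5 (1.12, SE 0.19, adjusted p = 0.00184), LIMS1 (0.62) and, lower, ITGB1BP1 (-0.99), a protein that binds the tail of the ITGB1 chain. Under siFOXA1.2 in SCaBER edgeR called 0 of the 49, against 0.042% of all genes tested. ITGA5 read 308 and 311 CPM under siFOXA1.1 against 195, 158, 107 and 134 CPM in the SCaBER controls. Between the lines, 39 of 52 tested list genes differed under the control siRNAs, 14 higher and 25 lower in RT112, against 43.4% of all genes tested.

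The genes most alike in pattern to each of the 9 were ranked by Pearson's r of log2 CPM over the 16 libraries, after subtraction of the mean of the line, among 9699 genes. The libraries and their depth are shared by every pair, the values are a description, and no test was made. The closest were AREG for ITGA2 (r = 0.84), ZNF224 for ITGA3 (0.89), TSEN15 for ITGA6 (0.93), MT-ND4L for ITGAV (0.94), CARS for ITGB1 (0.92), NCS1 for ITGB4 (0.90), ARHGEF1 for ITGB6 (0.92), MMP2 for LAMA3 (0.86) and PLAUR for LAMB3 (0.83). MT-ND4L is encoded by the mitochondrial genome, whose share of the counts was highest in the RT112 siFOXA1.1 libraries.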

How the data were processed

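RNA of 2 bladder cancer lines was sequenced in 16 libraries with a 3' mRNA kit. The authors deposited raw counts per gene and TPM values (counts per gene length, scaled per library). The submitters' configuration lists TrimGalore 0.6.2 for trimming (minimum quality 20, minimum length 10), then STAR 2.6.1a for alignment and counting on hg38 with GENCODE 29, whereas the methods of the study name hg19. The labels give 10 nM of siRNA and the methods give that figure in ng. Neither is used in a calculation.

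Each line was fitted with edgeR 4.0.16 in R 4.3.3 (TMM, filterByExpr by line and target, quasi-likelihood F test, Benjamini-Hochberg over all genes tested, threshold 0.05), with 1 mean per siRNA. Each siFOXA1 siRNA was contrasted with the average of the control siRNAs, and the siRNAs of a target against each other. A pooled fit compared the targets, 8 control libraries compared the lines, and all 16 gave the interaction. SE was the log2 fold change over the square root of F. CPM were counts divided by the library total and rescaled to a common total. Floors of 3 counts cover counting error only. Alternatives were DESeq2 1.42.0, limma 3.58.1 on log2(TPM + 1), other scalings, no filter, no mitochondrial genes, a replicate block, each library left out, and, chosen after seeing the data, each control siRNA alone. The edgeR steps were also run on simulated counts, for the siFOXA1.1 contrast of RT112 only. These had the same spread for every gene and no difference between the control siRNAs. That checks the code and not the error rates in these data.

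The labels name the replicate number an experiment batch, so it pairs libraries across siRNAs. Deviations of same-numbered libraries correlated at -0.02 to 0.01 in RT112 (median over 6 pairs of siRNAs 0.0084) and 0.02 to 0.20 in SCaBER (median 0.034).

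The genes and lists were chosen with earlier results of these data known. The rule was to name all 9 genes in every comparison, with COL17A1, PLEC, DST and CD151. It also named the 4 largest rises and falls per siRNA and line among called list genes with a mean of at least 20 counts. It further named the 3 genes most alike to each of the 9, of which the closest are printed. Some comparisons print a range or only part of the 9, picked by their values. PLEC, DST and CD151 are printed for a few comparisons only. One further gene that this rule names is not reported here.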

Additional observations from a re-analysis of the deposited data

Results flagged for a closer look

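In SCaBER, ITGB1 in siControl.1 replicate 2 (317 CPM) and ITGB4 in siControl.1 replicate 1 (220 CPM) lay far above the other 3 control libraries of the line, which were at 213 to 220 CPM and 135 to 144 CPM. Such a gap is passed by chance in about 1 of 20 groups. The 9 genes were judged in 2 lines, with the control libraries and the siFOXA1 libraries as separate groups. Over that many groups some such gaps are expected by chance. Each group holds libraries of 2 siRNAs, so the rate is approximate. The change under siFOXA1.1 differed between RT112 and SCaBER in the interaction test for ITGAV (1.11), ITGB1 (0.92) and ITGB4 (-1.01). Without SCaBER siControl.1 replicate 2 the difference for ITGB1 was 0.76 and was not called (edgeR adjusted p = 0.0572).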

How the results depend on the processing

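With 2 libraries per siRNA, counts of called genes moved as follows. Brackets, where given, hold the count called over all genes tested in the same fit. Under siFOXA1.2 in RT112 the count was 1 (245 of 11986). It was 0 with limma on TPM (72), 3 against siControl.1 alone (318) and 0 against siControl.2 alone (141). Between the control siRNAs of RT112 it was 3 (283), and 0 with limma (78). Between the siFOXA1 siRNAs of SCaBER it was 0 (577 of 11902). There it was 2 with no filter (863 of 20017), 1 with DESeq2 (885 of 11479) and 2 with the replicate block (807). In SCaBER it went from 0 (5) to 1 (38 of 4882) with DESeq2 under siFOXA1.2. Under siFOXA1.1 it went from 3 (1102) to 1 (707) against siControl.1 alone. In the pooled comparison of SCaBER it went from 0 (1) to 1 (213 of 20017) with no filter. The interaction under siFOXA1.1 went from 3 (430 of 13701) to 1 (620) with limma. With each library left out in turn the counts ranged from 0 to 1 for siFOXA1.2 in RT112, 0 to 3 for its controls, 0 to 2 between the SCaBER siFOXA1 siRNAs and 0 to 3 for the interaction under siFOXA1.1. Beside these, ITGA6 and ITGB6 were not called between the lines in the fit with the replicate block, which there contrasted the replicate 1 libraries alone. The block changed no other call.

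The values that changed sign were not called. Under siFOXA1.1 in RT112, LAMA3 was at -0.0133 and LAMB3 at -0.13 with library totals, LAMB3 at -0.00599 with no filter, LAMA3 at -0.12 and LAMB3 at -0.33 with limma, ITGA6 at 0.0481 against siControl.1 alone, and LAMA3 at -0.45 and LAMB3 at -0.14 against siControl.2 alone. Under siFOXA1.2 against one control, ITGB6 was at -0.23 in RT112 (siControl.2), and ITGB6 at -0.23 and LAMA3 at -0.24 in SCaBER (siControl.1). Under siFOXA1.1 in SCaBER against siControl.2 alone, ITGA6 was at 0.0074 and LAMA3 at 0.32. With libraries left out, the ranges in RT112 were -0.21 to 0.37 (LAMA3, siFOXA1.1), -0.39 to 0.31 (LAMB3, siFOXA1.1), -0.0507 to 0.11 (ITGB6, siFOXA1.2) and -1.12 to 0.12 (LAMB3, siFOXA1.2). In SCaBER they were -0.21 to 0.0673 (ITGA6), -0.0228 to 0.46 (ITGB4) and -0.14 to 0.31 (ITGA2) under siFOXA1.1 and -0.0127 to 0.16 (ITGA6) under siFOXA1.2, and between the lines -0.13 to 0.14 (ITGB4). The cause was not tested.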
